A study of Mus musculus with 16 samples.

Results

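The 5 genes of the Ikaros family of zinc finger transcription factors, Ikzf1 (Ikaros), Ikzf2 (Helios), Ikzf3 (Aiolos), Ikzf4 (Eos) and Ikzf5 (Pegasus), were read on 16 Affymetrix arrays of activated mouse CD4+ T cells. They were taken as every probe set that the platform annotation gives exactly 1 symbol among these 5, out of 18193 genes named in this way. This gave 13 probe sets, of which 11 reached an intensity of log2 6 on at least 2 arrays and entered the fit. Of the other 2, the Ikzf2 probe set 1421643_at read 15 to 31 and the Ikzf3 probe set 1453378_at read 14 to 26, under that level on all 16 arrays. Of the 11, 10 reached it on all 16 arrays and members are counted over these; the Ikzf2 probe set 1456956_at reached it on 5, all in groups where it is high, so it was let in by the values it would be tested on and is described with no test.

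The samples were STAT3-deficient cells (genotype CD4 Cre; STAT3floxed) and WT cells (STAT3floxed, which carry the floxed alleles too but no Cre). The labels do not give the strain or age of the animals, or how many animals each sample came from. In the deficient cells the Cre is driven by CD4, so the deletion is made in the T cell lineage before the cells are sorted. All samples were naive CD4+ cells, CD44- and CD62L+, stimulated for 3 days through CD3 and CD28. To this was added 10 ug/ml IL-6 with 2.5 ug/ml TGFb, IL-6 alone, TGFb alone, or medium alone (the dose units are those of the labels). Each genotype and condition has 2 arrays, replicates 1 and 2. No label says whether the 2 came from separate animals or cultures. By Xist and Eif2s3y (below) replicate 1 was female and replicate 2 male material in every group, so the 2 are not copies of the same sample. The p-values thus reflect a spread between arrays that includes this difference of sex.

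Ikaros proteins bind DNA through one group of zinc fingers and pair with each other through another, and they recruit corepressor complexes such as NuRD to their target genes. Ikaros itself is made throughout the lymphocyte lineage. Helios and Eos are best known from regulatory T cells, where Eos works with Foxp3, and Aiolos from B cells and, in the mouse, from Th17 cells, where it silences Il2. STAT3 is the transcription factor that IL-6 activates, and TGFb drives naive cells toward regulatory T cells alone and toward Th17 cells together with IL-6.

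Before the results, 3 facts of the arrays bear on them. Stat3 read 338 to 1408 on the STAT3-deficient arrays and 1189 to 4649 on the WT arrays, and the ranges meet only through the STAT3-deficient TGFb replicate 2 array and the WT medium replicate 1 array. The 2 STAT3-deficient TGFb arrays correlated at 0.903 across probe sets, against 0.932 to 0.974 for the other pairs of replicates. Of these the replicate 1 array was closest to STAT3-deficient IL-6 with TGFb replicate 1, which in turn was closest to WT TGFb replicate 1. This alone does not set them apart, since only the WT IL-6 with TGFb arrays were closest to their own replicate. WT medium replicate 1, for example, correlated at 0.94 with its replicate and at 0.989 with STAT3-deficient medium replicate 1. Results were also computed without both STAT3-deficient replicate 1 arrays and with their labels exchanged. The replicate 1 arrays read Xist high and the Y-linked Eif2s3y low, and the replicate 2 arrays the reverse, so the number also parts female from male material. Cd3d, a T cell marker, read log2 12.1 to 13.55 on all arrays, and Cd8a, a CD8 T cell marker, read 6.17 to 6.75. Other markers were less clear: Trat1 of T cells read 5.75 to 9.71 and Cd8b1 of CD8 T cells 6.63 to 7.43. Ighm of B cells read 9.49 to 11.94 and Klrd1 of NK cells 5 to 12.85. Array medians were 66 to 73.

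The family did not move as one. Ikzf2 was high under TGFb in both genotypes and under IL-6 with TGFb in STAT3-deficient cells. Ikzf3 was high in WT cells with IL-6 and in all TGFb groups. Ikzf4 was highest under TGFb alone, whereas Ikzf1 and Ikzf5 passed in no comparison.

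**Figure D1:**
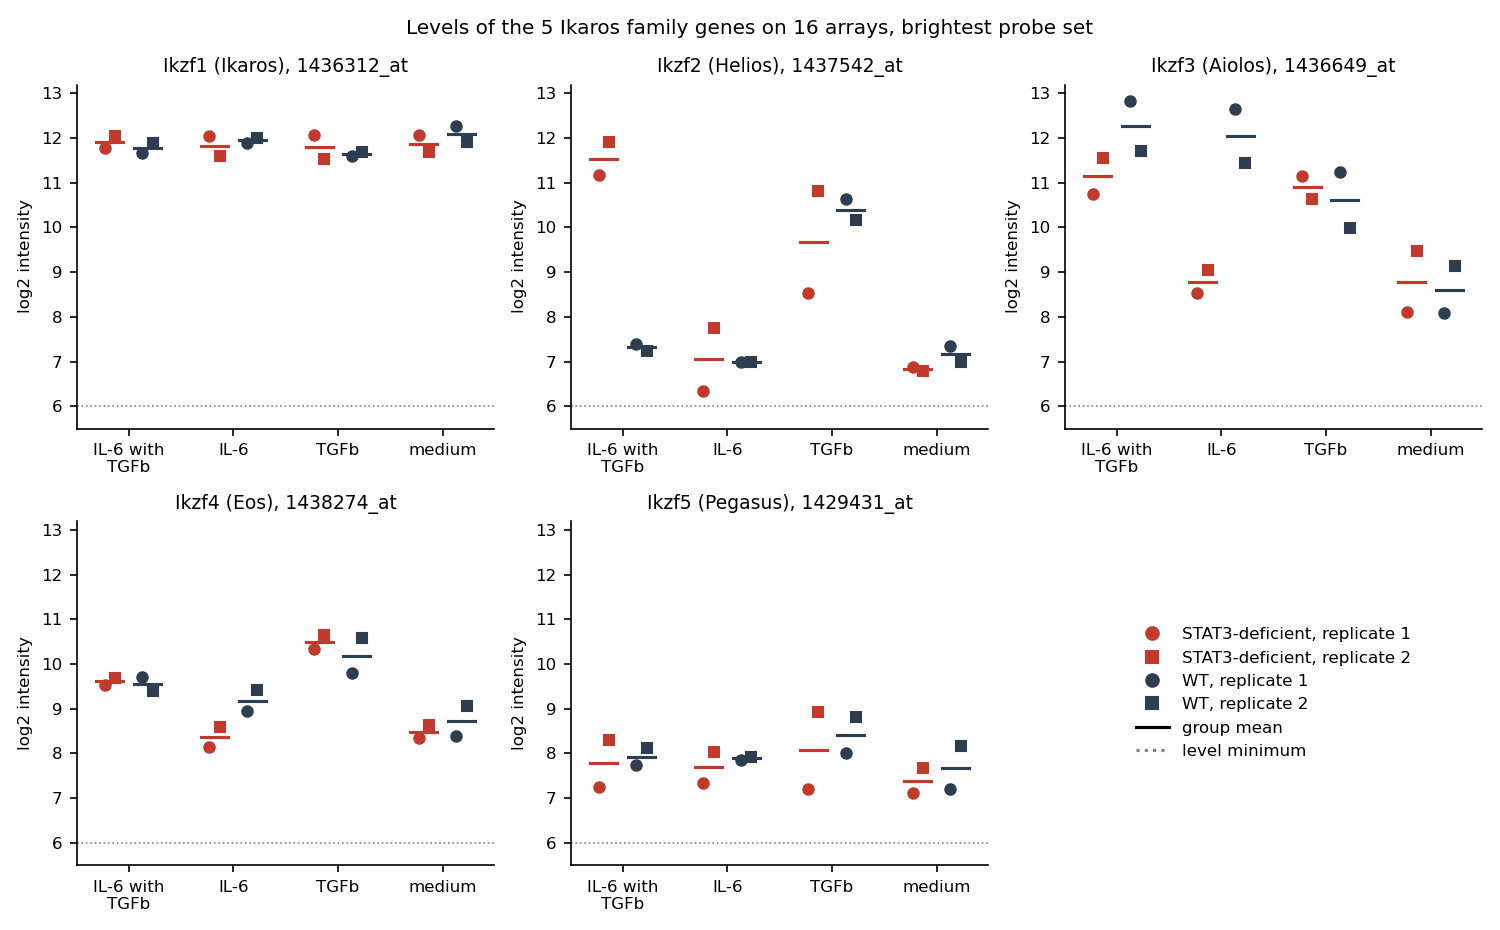
Log2 intensity of the brightest probe set of each Ikaros family gene on the 16 arrays, by condition, with STAT3-deficient cells in red left of WT cells in dark blue. Circles are replicate 1, squares replicate 2, bars the group means of 2 arrays and the dotted line the level minimum of log2 6. Ikzf2 parts the genotypes under IL-6 with TGFb (11.54 in STAT3-deficient cells and 7.31 in WT cells) and Ikzf3 under IL-6 (8.79 in STAT3-deficient cells and 12.05 in WT cells).

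Ikzf2, which encodes Helios, was read best by probe set 1437542_at. Its intensity with both cytokines was 2302 and 3860 in STAT3-deficient cells, against 169 and 150 in WT cells. Under IL-6 alone it was 81 and 217 in STAT3-deficient cells, against 127 and 127 in WT cells. Under TGFb alone it was 372 and 1799 in STAT3-deficient cells, against 1590 and 1154 in WT cells. In medium it was 117 and 110 in STAT3-deficient cells, against 162 and 127 in WT cells, so that 3 of the 8 groups stood high and the other 5 lay between 81 and 217. These levels ordered the groups from STAT3-deficient IL-6 with TGFb (log2 mean 11.54 ± 0.53, SD, n = 2) through WT TGFb (10.4 ± 0.33) to STAT3-deficient TGFb (9.68 ± 1.61). The arrays of the first 2 did not overlap, and those of the last 2 did. The low groups followed at 6.83 to 7.31, and neighbours among those 5 overlapped except WT IL-6 (127 and 127) and STAT3-deficient medium (117 and 110). In bulk RNA a lower level cannot be told apart from fewer cells that express the gene.

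The comparison of genotypes asks which levels differ without STAT3. Under IL-6 with TGFb, 1 of the 10 member probe sets rose in STAT3-deficient cells relative to WT cells and 0 fell, where 0.125% of all 27220 probe sets tested rose and 0.937% were called in either direction. This was Ikzf2 1437542_at, on which the log2 change was 4.23 (SE 0.62, 18.7-fold, limma adjusted p = 0.00976), with 3.77 between the replicate 1 arrays and 4.69 between the replicate 2 arrays. The groups did not overlap, as was so for 44.2% of all probe sets. The adjusted p was 0.00353 with the replicate number as a block and 0.000865 to 0.207 over 10 alternatives, of which the exchange of the 2 arrays gave a log2 change of 2.91 that no longer passed. Leaving out any 1 of the 4 arrays kept the size (3.85 to 4.6) but also ended the call, at adjusted p values of 0.0647 to 0.101.

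The second Ikzf2 probe set, 1456956_at, is dimmer. It read, with IL-6 and TGFb together, 274 and 669 in STAT3-deficient cells, against 19 and 21 in WT cells. The difference of the log2 means was 4.42, a size that depends on the background because the WT arrays lie under the level minimum. Over the 16 arrays the 2 probe sets correlated at 0.97, as a description of arrays that share their samples.

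**Figure D2:**
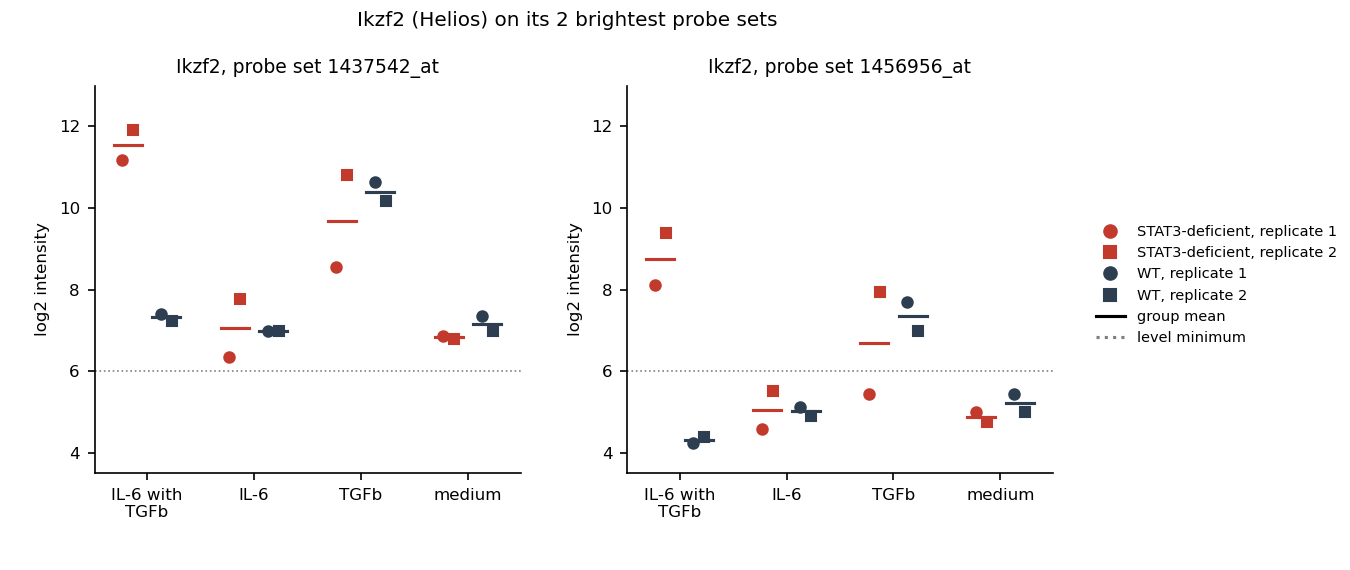
Log2 intensity of the 2 Ikzf2 probe sets that reached log2 6 on any array, on the 16 arrays by condition, STAT3-deficient cells (red) left of WT cells (dark blue), with circles for replicate 1, squares for replicate 2, bars for group means and a dotted line at log2 6. On both probe sets STAT3-deficient IL-6 with TGFb is the highest group and the STAT3-deficient TGFb arrays lie far apart (372 and 1799 on 1437542_at, 43 and 246 on 1456956_at).

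In the other 3 conditions no genotype difference of Ikzf2 passed. With TGFb alone 1437542_at changed by -0.73 on the log2 scale (SE 0.62, adjusted p = 1), with the replicates on opposite sides (-2.1 and 0.64). The 95% interval of this difference was -2.09 to 0.64. Its test against the difference under IL-6 with TGFb is given below and did not pass in the fit without the replicate block. Under IL-6 alone the change was 0.06 (interval -1.3 to 1.43) and in medium -0.34 (interval -1.7 to 1.03). In these last 2 conditions Ikzf2 was low in both genotypes. Neither with TGFb alone nor in medium was any probe set of the whole table called between the genotypes (0%). An unadjusted p under 0.05 was found for 0.614% and 0.231%, and for 0 of the 10 members. Stat3, the deleted gene, was not called there either, at log2 changes of -2.52 with TGFb and -2.05 in medium. The lack of calls in these 2 conditions therefore does not show equal levels.

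Within WT cells, IL-6 with TGFb differed from medium in Ikzf2 by a log2 change of 0.15 (SE 0.62, adjusted p = 0.967), whereas TGFb alone stood 3.24 above medium (SE 0.62, 9.44-fold). At an adjusted p of 0.117 this change was not called, though it was with the replicate block (0.0432; 0.0141 to 0.327 over 8 alternatives). None of the 10 members was, where 0.103% of all probe sets were called. Relative to TGFb alone, IL-6 with TGFb was lower in WT cells by a log2 change of -3.09 (SE 0.62, adjusted p = 0.0689, with the block 0.028, over 8 alternatives 0.00169 to 0.0887), and 0 of 10 members were called where 0.456% of all probe sets were. The groups did not overlap in either comparison, as for 42% and 41.1% of all probe sets.

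In STAT3-deficient cells, IL-6 with TGFb raised Ikzf2 above medium by 4.72 on the log2 scale (SE 0.62, 26.3-fold, adjusted p = 0.0178). It was the 1 member of 10 called there, where 0.0882% of all probe sets rose, and the call was lost without any 1 of the 4 arrays (4.34 to 5.09, adjusted p 0.117 to 0.204) and on exchange (3.4, adjusted p = 0.186). TGFb alone stood 2.85 above medium (SE 0.62, adjusted p = 0.127, with the block 0.0481, over 10 alternatives 0.0275 to 0.731). Without the STAT3-deficient TGFb replicate 1 array this was 3.99 and passed (adjusted p = 0.0218), and without the replicate 2 array it was 1.71 and did not (adjusted p = 0.148). Leaving out either medium array gave 2.89 and 2.81, also not called (adjusted p = 0.453 and 0.501). IL-6 with TGFb against TGFb alone was 1.87 (SE 0.62, adjusted p = 1) and turned to -0.76 when the 2 arrays were exchanged; in this step 0% of all probe sets were called and 2.96% had an unadjusted p under 0.05.

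The values for IL-6 on top of TGFb were thus 1.87 in STAT3-deficient cells and -3.09 in WT cells, neither of which passed. The difference of these changes was 4.95 (SE 0.88), and 4.57 (SE 0.88) when IL-6 with TGFb was set against medium. Neither passed (adjusted p = 0.107 and 0.145), nor did any other member, where 0.0367% and 0.0588% of all probe sets were called. With the block the first did (0.0403) and the second did not (0.0618), and over 10 alternatives the 2 values lay between 2.32 and 5.02 and between 3.25 and 4.94. Averaged over both conditions with IL-6, Ikzf2 was higher in STAT3-deficient than in WT cells by 2.14 (SE 0.44, adjusted p = 0.019), a mean of the large change with TGFb and of almost none without. The call did not hold without STAT3-deficient IL-6 replicate 2 (1.79), STAT3-deficient IL-6 with TGFb replicate 2 (1.96) or either WT IL-6 with TGFb array (2.19 and 2.1), and on exchange (1.49).

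**Figure D3:**
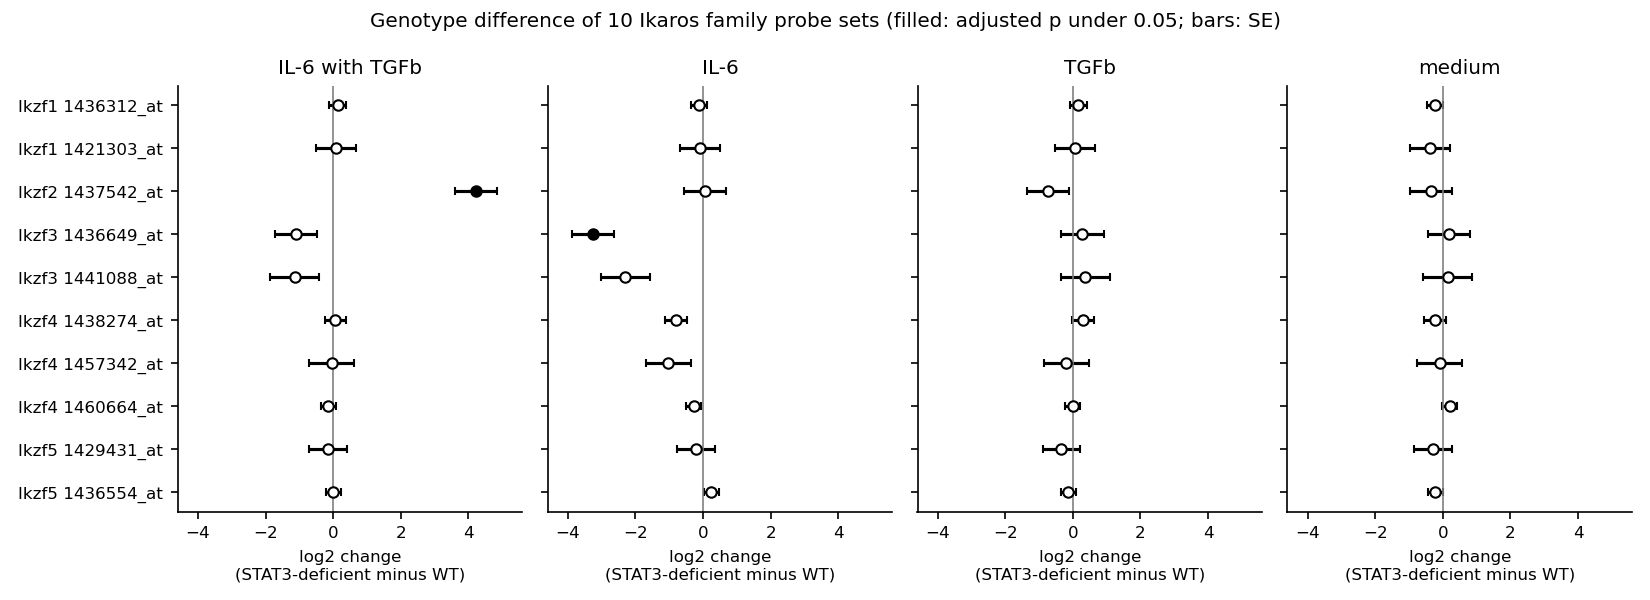
Log2 change (STAT3-deficient minus WT, horizontal axis) of the 10 Ikaros family probe sets that reached log2 6 on all arrays, in the 4 conditions, with SE from the fit to all 16 arrays; filled points passed an adjusted p of 0.05. Ikzf2 1437542_at lies at 4.23 under IL-6 with TGFb, and Ikzf3 1436649_at lies at -3.26 under IL-6.

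Ikzf3, which encodes Aiolos, changed in a different condition. On its brightest probe set, 1436649_at, intensity under IL-6 alone was 372 and 526 in STAT3-deficient cells, against 6430 and 2791 in WT cells. With both cytokines it was 1731 and 3022 in STAT3-deficient cells, against 7230 and 3339 in WT cells. Under TGFb alone it was 2289 and 1580 in STAT3-deficient cells, against 2414 and 1013 in WT cells. In medium it was 274 and 709 in STAT3-deficient cells, against 270 and 561 in WT cells, so that STAT3-deficient cells in IL-6 lay within the range of the medium arrays and every array with TGFb read 1013 or more.

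Under IL-6, Ikzf3 was the 1 member of 10 that fell in STAT3-deficient relative to WT cells, where 1.77% of all probe sets fell and 2.13% were called in either direction. The log2 change was -3.26 (SE 0.63, 9.58-fold, adjusted p = 0.0325, over 8 alternatives 0.0126 to 0.144). The call was lost without either STAT3-deficient array (-3.01 and -3.51) or WT replicate 1 (-2.66). The second probe set, 1441088_at, read 81 and 93 in STAT3-deficient cells, against 810 and 226 in WT cells, a change of -2.3 (SE 0.72) that missed the threshold at 0.117 and passed it with the block at 0.0269 (0.0269 to 0.33 over 7 alternatives). Under IL-6 with TGFb the change of 1436649_at was -1.1 (SE 0.63, adjusted p = 0.716, interval -2.49 to 0.29). Averaged over both conditions with IL-6 it was -2.18 (SE 0.45, adjusted p = 0.0191), and 2 of the 10 members were called there, Ikzf2 1437542_at higher and this one lower, where 1.07% of all probe sets rose and 4.79% fell. The Ikzf3 call was lost in 4 of 8 fits without 1 array: without replicate 1 of STAT3-deficient IL-6 (-2.06), of STAT3-deficient IL-6 with TGFb (-1.98), of WT IL-6 (-1.88) or of WT IL-6 with TGFb (-1.9). Without the 2 doubted STAT3-deficient replicate 1 arrays it was also -1.98 (adjusted p = 0.0835).

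In WT cells IL-6 with TGFb raised Ikzf3 above medium by 3.66 on the log2 scale (SE 0.63, 12.6-fold, adjusted p = 0.0131). It was 1 of 10 members called, where 1.55% of all probe sets rose, and the call was lost without WT IL-6 with TGFb replicate 1 (3.1) or WT medium replicate 1 (3.13). IL-6 alone gave 3.44 (SE 0.63), not called at an adjusted p of 0.0686 and called with the block at 0.0362 (0.0362 to 0.793 over 8 alternatives). No member passed in that step, where 0.231% of all probe sets did. Averaged over TGFb absent and present, IL-6 raised it by 2.55 (SE 0.45, adjusted p = 0.0201), again as 1 of 10 members where 1% of all probe sets rose. That call was lost without WT IL-6 replicate 1 (2.25), WT IL-6 with TGFb replicate 1 (2.27), WT TGFb replicate 2 (2.23) or WT medium replicate 1 (2.28), with adjusted p values up to 0.11, and in a fit of only the arrays compared. In STAT3-deficient cells IL-6 alone changed it by 0.01 (SE 0.63, interval -1.38 to 1.39; 0% of all probe sets called) and IL-6 with TGFb by 2.38 (adjusted p = 0.471). The difference between the genotypes in the response to IL-6 alone was -3.44 (SE 0.89) and did not pass (adjusted p = 0.479, with the block 0.182), where 0.022% of all probe sets did.

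Ikzf4, which encodes Eos, was read by 3 probe sets. The brightest, 1438274_at, read 744 and 821 under IL-6 with TGFb in STAT3-deficient cells, against 831 and 670 in WT cells. Under IL-6 alone it read 285 and 389 in STAT3-deficient cells, against 493 and 679 in WT cells. Under TGFb alone it read 1286 and 1592 in STAT3-deficient cells, against 888 and 1531 in WT cells. In medium it read 325 and 395 in STAT3-deficient cells, against 335 and 531 in WT cells. The genotypes thus overlapped in every condition but IL-6 alone, where 45.6% of all probe sets did not overlap either.

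TGFb alone raised Ikzf4 above medium in STAT3-deficient cells by 2 on the log2 scale (SE 0.32, 3.99-fold, adjusted p = 0.0375). It was 1 of 10 members called there, where 0.187% of all probe sets rose, and the call was lost without any 1 of the 4 arrays (1.84 to 2.15, adjusted p 0.0605 to 0.322) and on exchange (1.6, adjusted p = 0.281). In WT cells the same step was 1.47 (SE 0.32, adjusted p = 0.186, with the block 0.0302, over 8 alternatives 0.0302 to 0.556). The difference between genotypes under IL-6 alone, -0.8 (SE 0.32), did not pass (adjusted p = 0.202, with the block 0.0569). The 1457342_at probe set read higher on replicate 2 than on replicate 1 in 8 of 8 groups, by 0.97 on average.

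TGFb was the 1 factor that several members shared. Over the 4 pairs of groups that differ in TGFb, 5 of the 10 members rose and 0 fell, where 3.76% of all probe sets rose and 5.91% were called in either direction. The 5 were Ikzf2 1437542_at, Ikzf3 1436649_at and all 3 Ikzf4 probe sets, and each passed under every alternative run, the exchange, both doubted arrays left out and each single array left out included. The 3 Ikzf4 probe sets read the same gene and correlated at 0.73 to 0.93, so the 5 are not separate genes. The second Ikzf3 probe set, 1441088_at, was called in 0 of the 21 comparisons without the block. Its changes with TGFb were 1.13 in STAT3-deficient and 0.9 in WT cells on top of medium. On top of IL-6 they were 1 in STAT3-deficient and -0.17 in WT cells. On Ikzf2 1437542_at the 8 arrays with TGFb read 150 to 3860 (median 1372), against 81 to 217 (median 127) on the 8 arrays without. The mean change was 2.73 (SE 0.31, adjusted p = 0.000675). Inside the lower range lay only the 2 WT arrays with IL-6.

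The 4 pairs did not share this mean equally. TGFb added to IL-6 gave Ikzf2 a change of 4.49 in STAT3-deficient cells and 0.33 in WT cells. TGFb added to medium gave 2.85 in STAT3-deficient cells and 3.24 in WT cells. For Ikzf3 1436649_at the mean was 1.67 (SE 0.32, adjusted p = 0.0118), with 2.37 in STAT3-deficient and 0.21 in WT cells on top of IL-6 and 2.11 and 2.01 on top of medium. For both genes the WT pair with IL-6 was thus the lowest, from the opposite level: Ikzf2 was low and Ikzf3 high in both of its groups.

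Ikzf4 1438274_at read 670 to 1592 with TGFb (median 859.5), against 285 to 679 without (median 392), and 7 of 8 arrays with TGFb lay above all 8 without. Its mean change was 1.27 (SE 0.16, adjusted p = 0.00124). On 1457342_at it was 1.66 (SE 0.34, adjusted p = 0.016) and on 1460664_at 0.77 (SE 0.11, adjusted p = 0.00261).

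**Figure D4:**
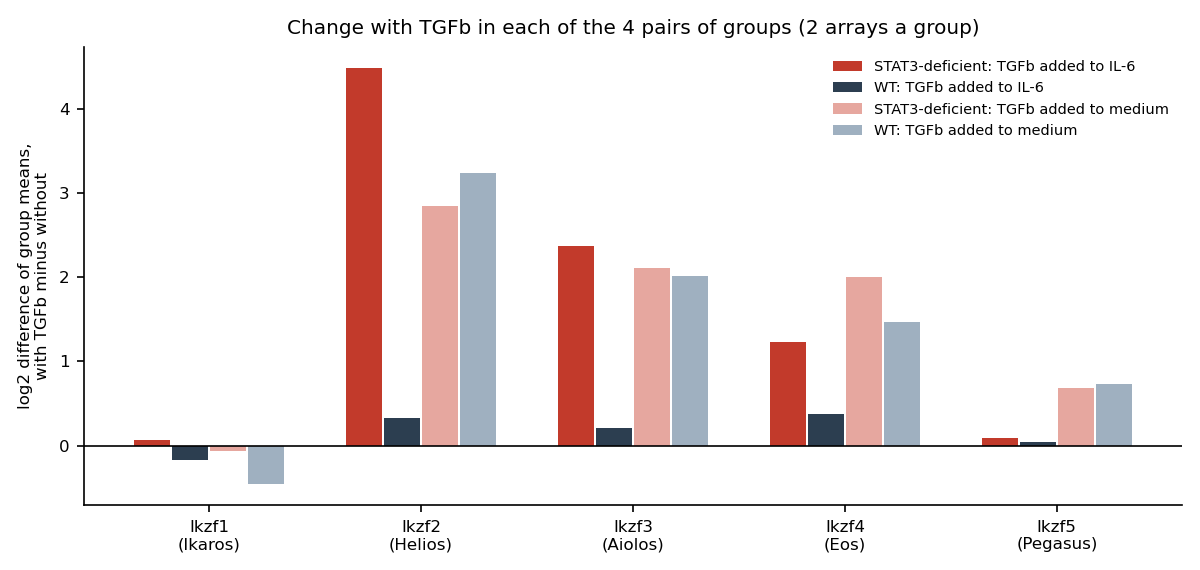
Difference of log2 group means with TGFb minus without (vertical axis) for the brightest probe set of each Ikaros family gene, in the 4 pairs of groups that differ in TGFb alone, 2 arrays a group and no error bars. Dark bars are TGFb added to IL-6 and pale bars TGFb added to medium, red for STAT3-deficient and blue for WT cells. Ikzf2 in WT cells with IL-6 (0.33) is far under its other 3 pairs (2.85 to 4.49).

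Ikzf1, the founding member, was abundant. Its probe set 1436312_at read 2963 to 4984 on the 16 arrays and passed in none of the 21 comparisons, with changes of -0.46 to 0.16 over the 12 comparisons of single groups (lowest adjusted p = 0.64). The dimmer 1421303_at read 163 to 249 (median 228.5) on replicate 1 and 97 to 133 (median 119) on replicate 2, lower on replicate 2 in 8 of 8 groups, and also passed in none. The 2 probe sets thus disagree on the replicates, which the brighter one parts in no fixed direction (replicate 2 higher in 4 of 8 groups).

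Ikzf5, the member that binds a different DNA sequence, passed in none of the 21 comparisons either. Probe set 1429431_at read 138 to 257 on replicate 1 and 203 to 489 on replicate 2, higher on replicate 2 in 8 of 8 groups. Its changes between single groups were -0.48 to 0.73 (lowest adjusted p = 0.773). Probe set 1436554_at read 149 to 232.

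In all, limma called a member in 8 of the 21 comparisons and none in the other 13. In those 13, at most 5 of 10 members had an unadjusted p under 0.05 (none in 5 of them), and in 5 of them the replicate block called at least 1. Against medium in WT cells the block called 4 of 10 members for TGFb, where it called 0.356% of all probe sets, and 4 for IL-6 with TGFb, where it called 4.94%. In STAT3-deficient cells it called 3 for TGFb against medium, where it called 0.878% of all. Between the genotypes under IL-6 it called 2 members and 10% of all probe sets, and for IL-6 in WT cells averaged over TGFb absent and present 2 members and 2.97% of all. Between the genotypes over both conditions with IL-6 it called 3 members and 16% of all. The block called 1 member each for IL-6 minus medium in WT cells (1.07% of all), for IL-6 with TGFb minus TGFb in WT cells (1.06%), for the genotypes' difference in that step (0.213%) and for the genotype difference with IL-6 minus without (1.5%).

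Foxp3, which defines regulatory T cells, was set beside Ikzf2 on each array. Under TGFb alone Foxp3 read 249 and 1011 in STAT3-deficient cells, against 28 and 1020 in WT cells. With both cytokines it read 163 and 507 in STAT3-deficient cells, against 28 and 239 in WT cells. On the 8 arrays without TGFb it read 21 to 38. WT TGFb replicate 1 therefore had Ikzf2 at 1590 with Foxp3 at 28, no more than in medium, and WT IL-6 with TGFb replicate 2 had Foxp3 at 239 with Ikzf2 at 150. The genotypes' difference in Foxp3 under IL-6 with TGFb was 1.81 (SE 1.41, adjusted p = 0.821).

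**Figure D5:**
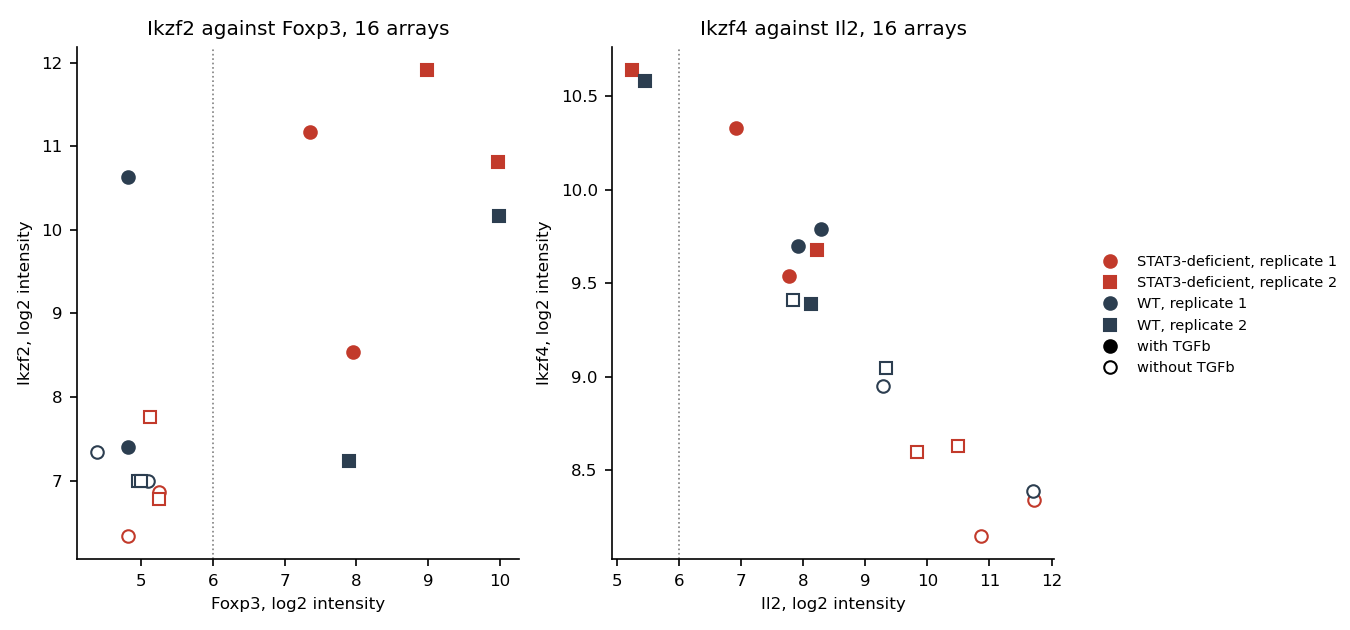
Left, Ikzf2 1437542_at against Foxp3, and right, Ikzf4 1438274_at against Il2, each as log2 intensity on 16 arrays; red is STAT3-deficient and dark blue WT, circles replicate 1 and squares replicate 2, filled with TGFb and open without, and the dotted line is the level minimum. WT TGFb replicate 1 (Ikzf2 1590, Foxp3 28) stands alone at the upper left, and on the right the arrays lowest in Il2 are the highest in Ikzf4.

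Of 18 regulatory T cell genes that Helios and Eos accompany, 15 were measured. Over the 4 TGFb pairs 7 of the 15 rose and 0 fell, where 3.76% of all probe sets rose and 2.15% fell. The median change was 0.38, against -0.01 over all probe sets. With the block 2 also passed as lower, Satb1, a chromatin organiser (-1.26, adjusted p = 0.0644 without the block and 0.0282 with it), and Tnfrsf4, the receptor OX40 (-0.53, 0.0571 and 0.0151). The block called 12.9% of all probe sets in this comparison. The largest rises were those of Nt5e (CD73, an ectoenzyme that makes adenosine, 4.56, adjusted p = 0.000321) and Foxp3 (2.74). Itgae (the integrin CD103, 2.51, adjusted p = 0.00635) and Entpd1 (CD39, 1.95, adjusted p = 0.0184) followed. Foxp3 reached the level minimum only on arrays with TGFb and read 21 to 38 on those without. It was thus let in by the values compared, so its change is given with no test. The 7 that rose include it. Between the genotypes under IL-6 with TGFb 0 of 15 passed in either direction (median 0.07), where 0.937% of all probe sets did. Over both conditions with IL-6 only Ctla4, an inhibitory receptor, passed (-1.25, adjusted p = 0.0246), where 4.79% of all probe sets fell. With the block Satb1 passed too (-1.64, adjusted p = 0.0853 without the block and 0.0353 with it), where the block called 16% of all probe sets.

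Of 15 genes reported as controlled by Ikaros proteins in T cells, 13 were measured. Over the TGFb pairs 3 rose and 1 fell (median 0.23), where 3.76% of all probe sets rose and 2.15% fell. Ahr, a ligand-activated transcription factor of Th17 cells, rose by 3.6 (adjusted p = 0.000108), Il17a by 1.71 (0.0346) and the repressor gene Bcl6 by 1.56 (0.0136), whereas Il2 changed by -2.89 (0.00715). The pairs did not share the Il17a mean equally. In WT cells Il17a stood 4.69 above medium with both cytokines but 0.06 with TGFb alone. In STAT3-deficient cells TGFb alone gave 1.66, with 3.3 between the replicate 1 arrays and 0.02 between the replicate 2 arrays. Stat3 passed over the TGFb pairs with the block alone (0.68, adjusted p = 0.211 without it and 0.0421 with it), where the block called 12.9% of all probe sets. Under IL-6, where 1.77% of all probe sets fell, 3 of the 13 fell in STAT3-deficient relative to WT cells (median -1.09, against -0.03 over all probe sets). They were Ahr (-3.32, adjusted p = 0.0313), Stat3 (-3.1, 0.0311), and Prdm1, which encodes the repressor Blimp-1 (-3.05, 0.0275). Stat3 is the deleted gene itself, so its fall was fixed by the genotype, and the count of 3 cannot be read against the share of all. Prdm1 averaged log2 8.51 in WT cells with IL-6, a group compared here, against 5.55 in WT medium and 6.02 in WT cells with TGFb alone. In STAT3-deficient cells it averaged 5.56 in medium, under the level minimum, and changed by -0.1 with IL-6, so the size of its fall depends on the background. With both cytokines only Il17a fell in STAT3-deficient relative to WT cells (-4.48, adjusted p = 0.029), where 0.812% of all probe sets did. Stat3 changed by -2.72 there (0.0623, with the block 0.00484). Il2, which Aiolos silences, changed by 1.8 under IL-6 (SE 0.99, adjusted p = 0.337) and by -0.02 under IL-6 with TGFb (adjusted p = 0.999).

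Partners of Ikaros proteins came next. Of 17 NuRD and corepressor genes, all measured, 2 rose with TGFb, where 3.76% of all probe sets rose: Chd3, a chromatin remodelling helicase of NuRD (0.93, adjusted p = 0.0173), and Mta3 (0.47, 0.0394). With the block Gatad2b, another NuRD subunit gene, passed too (0.35, adjusted p = 0.232 without the block and 0.0242 with it), where the block called 12.9% of all probe sets. Between the genotypes none passed in any of the 4 conditions without the block. With it, 2 of the 17 passed as lower under IL-6, Mbd2, which encodes a methyl-CpG binding protein of NuRD (-0.59, adjusted p = 0.163 without the block and 0.0446 with it), and Mta3 (-0.8, 0.0973 and 0.0498). The block called 10% of all probe sets there, so this count is near the share of all. Of 11 genes of the cereblon ubiquitin ligase, CK2 and PP1, which degrade or modify Ikaros proteins, 10 were measured and none passed in the 21 comparisons. With the block, Crbn, the cereblon substrate receptor, passed between the genotypes under IL-6 (-1.02, adjusted p = 0.114 without the block and 0.0417 with it) and over both conditions with IL-6 (-0.71, 0.0887 and 0.0325). The block called 10% and 16% of all probe sets in these 2 comparisons, so 1 of 10 genes is no more than the share of all.

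The genes whose log2 levels ran most like Ikzf2 1437542_at over the 16 arrays, among 13006 others read by their brightest probe set, were Cdh1 (Pearson r = 0.94), Car2 (0.93), Art4 (0.9), Grasp (0.9) and Kcnk6 (0.89). These are descriptions, since the arrays share groups and replicates and the genes were picked for their r. Car2, carbonic anhydrase, read 2022 and 2014 under IL-6 with TGFb in STAT3-deficient cells, against 95 and 63 in WT cells. Under TGFb alone Car2 read 107 and 597 in STAT3-deficient cells, against 940 and 317 in WT cells, so it too was high in WT TGFb cells and split the STAT3-deficient TGFb arrays. Cdh1, E-cadherin, read 78 and 410 under IL-6 with TGFb in STAT3-deficient cells, against 31 and 18 in WT cells. Cdh1 averaged log2 5.24 and reached log2 6 only in groups where Ikzf2 was high, so it was let in by those groups. Most of its values lie under the level minimum, and Art4 averaged 5.97. Most opposite were Cd53, a leukocyte tetraspanin (-0.87), Map3k20 and Gpr183 (both -0.83), and Vps37b and Odc1 (both -0.82). Over the 8 group means Cdh1 stayed the first of the 13006 genes, and of the other 4 the ranks were 7 to 30.

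For Ikzf3 the closest patterns were those of Vps54 (0.95), Kat2b (0.93) and Ttc14 (0.92), and the most opposite those of Ankrd33b (-0.93), Tmem120b and Rangrf (both -0.92). For Ikzf1 they were Itm2a (0.9), the T cell surface gene Cd5 (0.88) and Ms4a4b (0.83), against Npas2 (-0.88), 4833439L19Rik (-0.84) and Xdh (-0.83). For Ikzf5 they were Dmxl1 and Spag9 (both 0.94) and Papolg (0.92), against Tnnc2 (-0.92), Gm9112 (-0.89) and Trbv1 (-0.88). Over the 8 group means none of these stayed among the nearest 3 to Ikzf5 (Spag9 ranked 12, Dmxl1 157 and Papolg 227 of 13006, and the r of Gm9112 was -0.67), and Ikzf5 differed between the replicates in 8 of 8 groups. For Ikzf4 they were Ss18 and Slc22a5 (both 0.96) and B4galt1 (0.94), against Il2, the growth factor of T cells, and Kdm2b (both -0.96) and Nol10 (-0.95). Il2 read 121 and 38 under TGFb alone in STAT3-deficient cells and 313 and 44 in WT cells, against 3364 and 1445 in STAT3-deficient medium and 3337 and 646 in WT medium. Between the members, Ikzf2 and Ikzf4 correlated at 0.69 and Ikzf2 and Ikzf3 at 0.28 (brightest probe sets, 16 arrays).

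Markers of other cells were read beside the Ikzf2 difference. Under IL-6 with TGFb the summed intensity of 8 B cell markers was 3416 to 4340 in STAT3-deficient cells, against 1683 to 1984 in WT cells, with Ighm the only one above log2 7.4 on any array and Cd79a, Blnk and Ebf1 not reaching log2 6. The summed intensity of 5 NK cell markers was 697 to 1376 in STAT3-deficient cells, against 4612 to 7630 in WT cells, which came mostly from Klrd1 (up to 7360 over all 16 arrays), with Ncr1 and Klra8 not reaching log2 6. The sums of 7 myeloid and 2 CD8 T cell markers were 537 to 587 and 233 to 243 in STAT3-deficient cells, against 457 to 493 and 197 to 232 in WT cells. That of 5 dendritic cell markers was 500 to 771 in STAT3-deficient cells, against 1401 to 1660 in WT cells, with Itgax not reaching log2 6 and H2-Ab1 the highest (up to 2563 over all 16 arrays). The sum of 9 T cell markers was 30246 to 32469 in STAT3-deficient cells, against 26973 to 29445 in WT cells. The part of these in the Ikzf2 difference was not tested.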

How the data were processed

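RNA of each sample was biotin-labelled and hybridised to 1 Affymetrix array, 16 in all, per the labels. Per the submitters' processing notes the authors used RMA, of a version not named in the sources used here. What was deposited is intensity, linear and in whole numbers (100% of values), though RMA usually gives log2; the step between is not given, and detection calls were not used here. Of 45101 probe sets 64 array controls were left out. Names came from the platform annotation (34945 probe sets with exactly 1 symbol, 932 with several, 9160 with none; 34741 matched in the RefSeq genes by Entrez number).

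Log2 was taken of the deposited intensity with no pseudocount, and 27220 probe sets that reached log2 6 on at least 2 arrays were tested. All 16 arrays were fitted in limma 3.58.1 (R 4.3.3) as 8 group means, which lets pairs share 1 spread estimate (residual df 8, prior df 3.17, prior SD 0.281). Each of 21 comparisons was tested two-sided by eBayes and adjusted by Benjamini-Hochberg over the 27220, and a change was called under 0.05. The limma fit was tested on simulated data in which the arrays varied independently. Same-numbered arrays here deviated together (below), so that test does not bear on this pairing. Pooled changes are means of group differences. The number of arrays limits the precision. Listed genes and markers were read by their brightest probe set, and a list's median stands beside that over all probe sets. Named are all members, up to 4 called genes of a list, Foxp3, Stat3 and Il2, the nearest patterns, and the array checks Xist and Eif2s3y. Crbn, Mbd2, Mta3 under IL-6, Gatad2b, Satb1 and Tnfrsf4, named for their calls with the block, were chosen after their values were seen. The members, lists and tests were chosen with earlier results of these data known.

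Same-numbered arrays deviated together from their group means in all 28 pairs of groups (correlation 0.21 to 0.84, median 0.4), so the replicate numbers in the titles pair the samples, and the fit with the number as a block is given where it changes a call that the text reports. Alternatives were this block, the arrays compared alone, each array left out, both doubted arrays left out, quantile normalization, a pseudocount of 16, a level minimum of log2 7 or none, 1 probe set a gene, array weights and, chosen after seeing the data, exchange of the 2 doubted arrays. Sequences of the members were not used here. Plots came from matplotlib 3.10.9 (Python 3.11.15).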

Additional observations from a re-analysis of the deposited data

Results flagged for a closer look

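The difference between the genotypes in what IL-6 with TGFb did to Ikzf2 stood out because every array of one genotype lay on the other side of its comparison group from those of the other, though on 1437542_at neither genotype's change from TGFb alone passed. Between IL-6 with TGFb and TGFb alone, 1437542_at changed by 1.87 in STAT3-deficient cells and -3.09 in WT cells, a difference of 4.95 (SE 0.88, limma adjusted p = 0.107, with the replicate block 0.0403, over 10 alternatives 0.0403 to 1). On 1456956_at the same difference was 5.08, from 2.06 in STAT3-deficient cells and -3.02 in WT cells. Between IL-6 with TGFb and medium, 1456956_at changed by 3.86 in STAT3-deficient cells and -0.89 in WT cells, a difference of 4.76 (on 1437542_at it was 4.72 in STAT3-deficient cells and 0.15 in WT cells, of the same sign). All WT arrays in this last pair lie under the level minimum, so the sign of the WT change there depends on the background. The 2 values of 1456956_at have no test, since it reached the level minimum only in groups where it is high. With the 2 doubted arrays exchanged the change in STAT3-deficient cells between IL-6 with TGFb and TGFb turned to -0.76 on 1437542_at and to -0.61 on 1456956_at.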

How the results depend on the processing

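Unless another probe set is named, values are log2 changes of Ikzf2 1437542_at, Ikzf3 1436649_at and Ikzf4 1438274_at. With the replicate block, calls were gained for Ikzf2 in TGFb minus medium in WT (3.24) and STAT3-deficient cells (2.85), in IL-6 with TGFb minus TGFb in WT cells (-3.09), in the genotypes' difference in that step (4.95) and in the genotype difference with IL-6 minus without (2.68). The block ended no call of a member. Array weights gained calls for Ikzf2 at 3.24, -3.09, 4.95, 4.57 (genotypes' difference in IL-6 with TGFb minus medium) and -1.63 (IL-6 in WT, mean over TGFb), and lost Ikzf3 under IL-6 between genotypes (-3.26) and Ikzf4 in TGFb minus medium in STAT3-deficient cells (2). Fits of only the arrays compared gained Ikzf2 at -3.09, 4.57 and -1.63 and lost Ikzf2 in IL-6 with TGFb minus medium in STAT3-deficient cells (4.72), Ikzf3 at -3.26, 3.66 and 2.55, and Ikzf4 at 2. A smaller fit has fewer degrees of freedom; for the other settings the cause was not tested. Exchange of the 2 doubted arrays lost Ikzf2 between genotypes under IL-6 with TGFb (2.91) and over both IL-6 conditions (1.49), Ikzf2 in IL-6 with TGFb minus medium without STAT3 (3.4) and Ikzf4 in TGFb minus medium (1.6). It reversed Ikzf2 values that had not passed: between genotypes under TGFb (0.59) and without IL-6 (0.12), the genotypes' difference in TGFb minus medium (0.93) and IL-6 with TGFb minus TGFb without STAT3 (-0.76). Leaving both arrays out reversed the first 3 (0.41, 0.04 and 0.75), gained Ikzf2 in TGFb minus medium without STAT3 (3.99) and lost Ikzf3 over both IL-6 conditions (-1.98) and Ikzf4 in TGFb minus medium (2.15). Leaving out 1 array moved Ikzf2 between genotypes to 3.85 to 4.6 under IL-6 with TGFb, -0.65 to 0.77 under IL-6, -1.86 to 0.41 under TGFb, 1.79 to 2.5 over both IL-6 conditions, -1.1 to 0.04 without IL-6 and 2.11 to 3.25 for the difference of these. It moved Ikzf2 against medium to -0.03 to 0.33 in WT IL-6 with TGFb, and in STAT3-deficient cells to 4.34 to 5.09 with both cytokines, -0.49 to 0.94 with IL-6 and 1.71 to 3.99 with TGFb. The genotypes' differences ran from -0.31 to 1.11 for IL-6, -1.53 to 0.75 for TGFb and 3.82 to 6.09 for IL-6 with TGFb minus TGFb, where the array that gained the call was STAT3-deficient TGFb replicate 2. Ikzf3 ran from -3.86 to -2.66 between genotypes under IL-6, -2.48 to -1.88 over both IL-6 conditions, 3.1 to 4.22 in WT IL-6 with TGFb minus medium and 2.23 to 2.86 for IL-6 in WT, and Ikzf4 from 1.84 to 2.15 for TGFb minus medium without STAT3. The 5 calls with TGFb over 4 pairs held in every alternative run. A further 284 sign changes concerned member values that passed in no fit with all groups; none was past the threshold, and the largest such value was 2.06. Counts over all probe sets moved far more: between genotypes under IL-6 with TGFb 255 were called and 82 to 585 under the alternatives with all groups (44 to 63 without 1 array), and under IL-6 579, 2 to 2729 and 29 to 825. Over both IL-6 conditions these were 1594, 698 to 4362 and 392 to 1593, and for TGFb over 4 pairs 1608, 1106 to 3503 and 799 to 2212. For IL-6 with TGFb minus medium they were 546, 118 to 1345 and 141 to 382 in WT and 25, 0 to 61 and 5 to 7 in STAT3-deficient cells, and for TGFb minus medium in STAT3-deficient cells 55, 0 to 239 and 7 to 314. For IL-6 in WT over TGFb they were 318, 181 to 808 and 94 to 660. Signal over background limits Ikzf2 1456956_at, which reached log2 6 on 5 of 16 arrays.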
